A study of Mus musculus with 37 samples.

Results

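Ifitm1, Ifitm2 and Ifitm3 are 3 interferon-induced transmembrane genes of the mouse, followed here in bulk RNA from mouse embryos made by nuclear transfer, in the tail tip fibroblasts that donated nuclei, and in control oocytes and embryos. They were found by gene symbol in the annotation of both versions of an Illumina bead array, where each had 1 probe (ILMN_1245129 for Ifitm1, ILMN_1232667 for Ifitm2 and ILMN_2658501 for Ifitm3). They are 3 of the 8158 genes in the fit of the first array version, and Ifitm2 and Ifitm3 are 2 of the 7181 genes in the fit of the second, where Ifitm1 was detected on 1 of 15 arrays. The genes were chosen with results of these arrays in view, so their levels and differences are given as a description without a test. The family members resemble each other in sequence, and how far a probe of one gene also bound transcripts of another was not tested.

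The study asked how far a transferred genome is reset within 1 cell cycle when the genome of a dividing embryo is exchanged at mitosis. Anaphase NT embryos (2 samples) and prometaphase NT embryos (2 samples) were zygotes that received the genome of an interphase tail tip cell at anaphase or at prometaphase of their mitosis, and were collected 22 to 24 hours later. Blastomere NT embryos (3 arrays) were collected 14 hours after transfer, and their labels do not name the donor cell apart from the series text, which names tail tip skin fibroblasts. Oocyte NT embryos (2 samples) were MII oocytes given interphase tail tip fibroblasts 2 days earlier. The ES interphase NT embryos were interphase zygotes given interphase embryonic stem cells 1 day earlier, and the genome-less embryos had been kept 1 day without any genome, with 1 array of each on each array version. The fibroblasts (3 samples) came from agouti 129xB6 F1 mice. Cleavage-inhibited embryos (2 samples) stayed at 1 cell while timed to the 2-cell stage, and 2-cell controls (2 samples) had divided normally; both were taken about 22 to 24 hours after the first mitosis. The remaining controls were M-phase zygotes (3 samples), interphase zygotes about 25 hours after hCG (3 samples), 4-cell embryos 14 hours after release from a mitotic block (2 samples), MII oocytes (2 samples) and 1 parthenote, an egg activated without sperm, 2 days after activation. All embryos were cultured in KSOM. Strain of the embryos, sex and the number of embryos per sample are not given in the sources used here, and only part of the samples are named as biological duplicates, so the spread between samples may be partly technical.

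IFITM proteins are small membrane proteins that sit at the cell surface and in endosomes, where they hinder the fusion of enveloped viruses with the cell. Interferons bind receptors that signal through JAK kinases to transcription factors, which act at short DNA elements (the ISRE and the GAS) near the start of interferon-induced genes. In the mouse embryo, Ifitm3, also called fragilis, is known as a marker of the cells that become competent to form primordial germ cells.

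The promoter windows below show how the 3 genes differ in these elements. They run from 250 bases before to 50 bases after the annotated start (RefSeq, GRCm38.p6), 5′ to 3′ on the gene's strand. Capitals mark matches to the ISRE core GAAANNGAAA or to the GAS TTCNNNGAA, searched on both strands.
Ifitm1: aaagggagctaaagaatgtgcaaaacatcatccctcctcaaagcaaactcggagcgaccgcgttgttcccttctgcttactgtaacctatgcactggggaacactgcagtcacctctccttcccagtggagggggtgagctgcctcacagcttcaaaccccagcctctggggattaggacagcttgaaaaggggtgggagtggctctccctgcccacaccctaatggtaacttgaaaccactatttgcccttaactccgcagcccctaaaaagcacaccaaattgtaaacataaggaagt
Ifitm2: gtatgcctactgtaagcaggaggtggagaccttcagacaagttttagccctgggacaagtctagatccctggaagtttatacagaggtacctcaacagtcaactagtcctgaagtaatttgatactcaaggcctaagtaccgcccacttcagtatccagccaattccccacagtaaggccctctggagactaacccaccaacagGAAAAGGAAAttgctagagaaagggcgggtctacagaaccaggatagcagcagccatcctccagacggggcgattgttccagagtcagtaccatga
Ifitm3: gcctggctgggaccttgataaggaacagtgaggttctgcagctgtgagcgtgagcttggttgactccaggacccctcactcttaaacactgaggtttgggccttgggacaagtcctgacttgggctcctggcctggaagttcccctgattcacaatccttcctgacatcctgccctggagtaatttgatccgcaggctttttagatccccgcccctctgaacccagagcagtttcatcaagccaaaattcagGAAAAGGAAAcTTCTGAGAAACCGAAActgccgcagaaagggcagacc
The Ifitm1 window, at chr7:140967826-140968125 on the plus strand, held neither motif. The Ifitm2 window, at chr7:140955912-140956211 on the minus strand, held 1 ISRE core at -46 to -37 from the start. The Ifitm3 window, at chr7:141010695-141010994 on the minus strand, held 2 ISRE cores, at 3 to 12 and 20 to 29 bases into the transcript, and 1 GAS at 14 to 22 that overlaps the second of them. Of 32851 promoters of the same length, 1131 (3.44%) held an ISRE core, 74 (0.225%) held 2 or more, and 2726 (8.3%) held a GAS. These matches describe the letters in the windows and not binding.

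Values are log2 intensities after background correction and quantile normalization, done for each array version on its own, so a level on one version is not comparable with a level on the other. A probe counts as detected where the deposited detection p-value was below 0.05. The first version held 22 arrays, of which 18.8% to 45.7% of probes were detected, and the second held 15 arrays with 33.8% to 44% detected. The lowest shares were on the first version's genome-less array (18.8%) and ES interphase NT array (20.8%), where the lowest detected level was 6.53 and 6.25, against 4.47 to 5.13 on the other arrays of that version. Blastomere NT arrays 1 and 3 differed only slightly more than repeat hybridizations of 1 RNA (SD of their log2 difference 0.125, against 0.103 to 0.119 in 3 repeat pairs), and they were counted as 1 sample. The labels do not name the partner of a repeat, and the array of highest correlation in the group was presumed to be it. The 2 anaphase NT samples correlated at r = 0.819, the lowest of any replicate pair. In whole-embryo and whole-culture RNA, fewer expressing cells and less RNA per cell cannot be told apart.

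**Figure D1:**
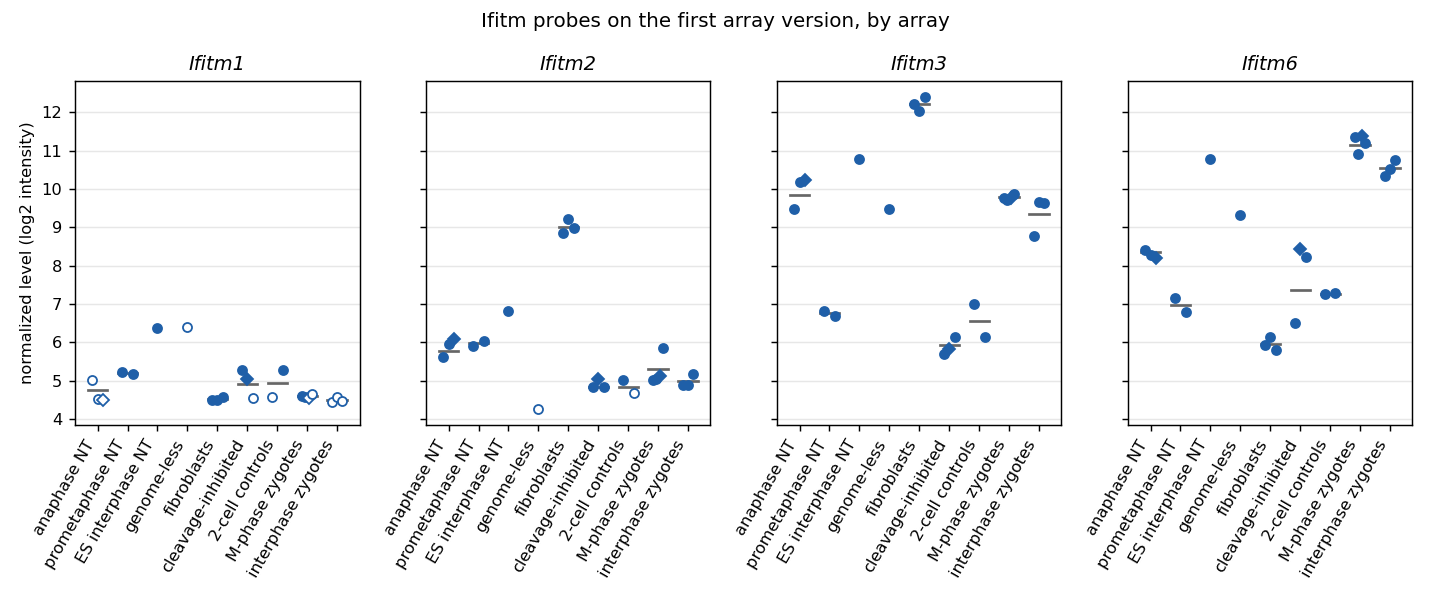
Normalized log2 intensity of Ifitm1, Ifitm2, Ifitm3 and Ifitm6 on each array of the first version, by group. Filled points were detected, open points were not, diamonds are repeat hybridizations and bars are means over samples; Ifitm3 in anaphase NT embryos (9.48 and 10.19) lay near M-phase zygotes and above prometaphase NT embryos (6.83 and 6.70).

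Ifitm1, which acts mainly at the cell surface, was near the limit of detection throughout. It was detected on 11 of 22 arrays of the first version. Its level was 5.01 and 4.52 in anaphase NT embryos, 5.24 and 5.19 in prometaphase NT embryos, 4.51, 4.49 and 4.57 in fibroblasts, and 4.58 and 5.29 in 2-cell controls. The anaphase values and the first of the 2-cell values were not detected. M-phase zygotes had 4.61, 4.59 and 4.65, and interphase zygotes had 4.46, 4.58 and 4.47 with none detected. The higher values of the ES interphase NT embryo (6.38, detected) and the genome-less embryo (6.41, not detected) lie at the raised detection limit of those arrays. On the second version its levels ran between 4.81 and 6.05, and it was detected on 1 repeat hybridization of a 2-cell control (6.05). The fitted log2 differences for Ifitm1 lay between -0.45 ± 0.25 (SE) in anaphase NT against prometaphase NT and 0.32 ± 0.23 in 2-cell controls against M-phase zygotes. The last of these was -0.03 without 2-cell control 23 and -0.01 with the deposited series values.

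Ifitm3 and Ifitm2 were at their highest in the donor fibroblasts among all groups of the first version. Ifitm3 had 12.23, 12.03 and 12.41 in fibroblasts, against 7.0 and 6.13 in 2-cell controls and 8.77, 9.67 and 9.63 in interphase zygotes. Ifitm2 had 8.85, 9.23 and 8.98 in fibroblasts, against 5.02 and 4.68 in 2-cell controls and 4.90, 4.88 and 5.17 in interphase zygotes. Each fibroblast sample lay above each control embryo for both genes, and the lower of the 2-cell values for Ifitm2 was not detected. Against 2-cell controls, the log2 difference was 5.66 ± 0.33 (SE) for Ifitm3, larger than in 98.9% of genes, and 4.17 ± 0.28 for Ifitm2, larger than in 96.8% of genes. Against interphase zygotes it was 2.87 ± 0.30 for Ifitm3 and 4.04 ± 0.25 for Ifitm2. Of all genes, 37.3% lay above the 2-cell controls without overlap and 36.4% above the interphase zygotes. The Ifitm3 difference from interphase zygotes was 3.36 within one of the slides that held both groups and 2.76 within the other.

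Macrophage markers were also high in the tail tip samples. In fibroblasts against 2-cell controls, 13 of 14 tested macrophage and leukocyte markers were called higher (limma, adjusted p below 0.05) and none lower, in a comparison in which 25.5% of all genes were called higher. On at least 1 array, 14 of the 14 were detected in fibroblasts and 3 in 2-cell controls. A gene entered the fit with detection on 2 arrays of any group. Markers that entered through the fibroblasts could be called higher but not lower, so this count does not test the list. The fibroblast level of Laptm5, a lysosomal protein of blood cells, exceeded that of 2-cell controls at least 212-fold (adjusted p = 4.98e-05). For Adgre1, the F4/80 antigen of macrophages, the bound was 105-fold (adjusted p = 6.19e-12). Such a bound sets the fibroblast mean against the lowest detectable signal of the control arrays, because the probe was not detected on any of them. All 14 tested fibroblast markers were also called higher, under the same limit, with 4 of them detected in 2-cell controls. Of other cell types, 1 of 7 endothelial markers was called higher and 1 lower, 1 of 2 keratinocyte markers was called lower, and 2 of 6 cumulus markers were called higher and 1 lower; Pecam1, which defines endothelium, was not detected in the fibroblasts. The summed intensity of the fibroblast list was 46100 to 52500 in fibroblasts and 734 to 794 in 2-cell controls, and that of the macrophage list was 14200 to 14600 in fibroblasts and 296 to 356 in 2-cell controls. Which of these cells carried the Ifitm RNA was not tested.

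In normal development, Ifitm3 was lower after the first division. It had 7.0 and 6.13 in 2-cell controls, against 9.77, 9.71 and 9.87 in M-phase zygotes, with a repeat hybridization of the M-phase RNA at 9.78. The groups did not overlap, and the log2 difference was -3.22 ± 0.33 (SE), with 2.92% of genes lower still and 35% of all genes below without overlap. Ifitm2 had 5.02 and 4.68 in 2-cell controls against 5.02, 5.04 and 5.85 in M-phase zygotes, and these groups overlapped at a difference of -0.46 ± 0.28. Ifitm6, a family member next to Ifitm3 on chromosome 7 that was not among the chosen genes, fell by 3.88 on the log2 scale (SE 0.38, adjusted p = 2.33e-06) in 2-cell controls. It had 7.26 and 7.29 in 2-cell controls, against 11.35, 10.91 and 11.21 in M-phase zygotes. The oocyte and maternal markers moved the same way, with 9 of 12 called lower and none higher where 21.9% of all genes were called lower, and summed 11400 to 12500 in 2-cell controls and 50800 to 51700 in M-phase zygotes. Their part in the Ifitm values was not tested.

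Blocking cleavage left all 3 genes within the range of the controls or close to it. Ifitm3 had 5.71 and 6.15 in cleavage-inhibited embryos, against 7.0 and 6.13 in 2-cell controls, and Ifitm2 had 4.84 and 4.83 in cleavage-inhibited embryos, against 5.02 and 4.68 in 2-cell controls. The groups overlapped, at differences of -0.64 ± 0.36 and -0.01 ± 0.31 (SE). Ifitm6 had 6.51 and 8.24 in cleavage-inhibited embryos and did not pass the test (0.10 on the log2 scale, adjusted p = 1). Of all genes, 0.123% were called higher and 0.11% lower in this comparison.

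Anaphase NT embryos had more Ifitm3 than embryos of the same stage. Ifitm3 had 9.48 and 10.19 in anaphase NT embryos, against 7.0 and 6.13 in 2-cell controls, with a repeat hybridization of an anaphase RNA at 10.24. Both anaphase samples lay above both controls and below all fibroblasts, one below and one above the M-phase zygotes (9.71 to 9.87). The log2 difference from 2-cell controls was 3.27 ± 0.36 (SE), larger than in 98.7% of genes, and 30.1% of all genes lay above without overlap. Ifitm2 had 5.61 and 5.97 in anaphase NT embryos, against 5.02 and 4.68 (not detected) in 2-cell controls, which is 0.95 ± 0.31 higher without overlap. On the log2 scale Ifitm2 was thus much nearer to the 2-cell controls than to the fibroblasts, which had 8.85 to 9.23. The Ifitm2 value of anaphase NT 15 (5.61) lay near the lowest detected level of its array (5.13). Its raw intensity was 34.28, and that of anaphase NT 19 was 55.54, beside 34.14 and 28.78 in the 2-cell controls. The size of the Ifitm2 difference therefore depends on the background correction and normalization.

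In prometaphase NT embryos Ifitm3 was near the controls and the larger difference was in Ifitm2. Ifitm3 had 6.83 and 6.70 in prometaphase NT embryos, inside the range of the 2-cell controls (7.0 and 6.13), at a difference of 0.20 ± 0.36 (SE). Ifitm2 had 5.92 and 6.04 in prometaphase NT embryos, against 5.02 and 4.68 (not detected) in 2-cell controls. These control values lay near the lowest detected level of their arrays (4.64 and 4.73). Both prometaphase NT samples lay above both controls, at 1.13 ± 0.31, larger than in 96.9% of genes, where 23% of all genes lay above without overlap. This difference was 0.62 without background correction and 2.07 with the deposited series values. Anaphase and prometaphase NT embryos were set against the same 2-cell samples, so these comparisons are not independent.

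Set against each other, anaphase NT embryos exceeded prometaphase NT embryos in Ifitm3 by 3.07 ± 0.36 (SE) on the log2 scale, larger than in 98% of genes. All anaphase values lay above all prometaphase values, as they did for 34.5% of all genes. For Ifitm2 the same difference was -0.18 ± 0.31, with overlapping groups. Ifitm6 had 8.42 and 8.28 in anaphase NT embryos, against 7.16 and 6.80 in prometaphase NT embryos, and was higher by 1.36 ± 0.41 (adjusted p = 0.0174). That call was lost without anaphase NT 15 (adjusted p = 0.0643) and without prometaphase NT 28 (adjusted p = 0.107). Ifitm10, a more distant relative, had 6.45 and 4.84 in anaphase NT embryos, against 4.43 and 4.49, both undetected, in prometaphase NT embryos, and was at least 2.03-fold higher (adjusted p = 0.0192). Anaphase NT 15 carried this value, and the call was lost without it (adjusted p = 0.194) and without either prometaphase NT sample (adjusted p = 0.0839 and 0.0698). The anaphase arrays lay on another slide than the prometaphase and 2-cell arrays, apart from the repeat hybridization. Within the slide that held the repeat, the Ifitm3 difference was 3.47 against prometaphase NT embryos and 3.67 against 2-cell controls, and the Ifitm2 difference was 0.10 and 1.23.

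Markers of fibroblasts and of oocytes moved with the anaphase values. Against 2-cell controls, 10 of 14 fibroblast markers and 8 of 12 oocyte markers were called higher in anaphase NT embryos, where 17.1% of all genes were. On at least 1 array, 12 of the 14 fibroblast markers were detected in anaphase NT embryos and 4 in 2-cell controls. Fibroblast markers that entered the fit through the fibroblasts or the transfer arrays could be called higher but not lower. The fibroblast marker counts therefore do not test the list. The summed fibroblast list was 6620 and 6410 in anaphase NT embryos, 887 and 1010 in prometaphase NT embryos, and 794 and 734 in 2-cell controls. M-phase zygotes, which had received no fibroblast, also had 3970 to 4530. Mmp2, a member of this list, had a mean level of 11.6 in anaphase NT embryos, 8.49 in 2-cell controls and 11.95 in M-phase zygotes. The oocyte list summed 25700 to 26000 in anaphase NT embryos, 7810 to 9440 in prometaphase NT embryos and 11400 to 12500 in 2-cell controls. In prometaphase NT embryos 3 of 14 fibroblast markers were called higher, Serpinf1 (3.23 ± 0.36, adjusted p = 0.000268), Thy1 (1.68 ± 0.28, adjusted p = 0.00559) and Col5a1 (at least 2.14-fold, adjusted p = 0.00216), where 1.62% of all genes were. Macrophage markers were called higher in neither transfer group, although 2 of 14 were in anaphase NT embryos without anaphase NT 15 or without anaphase NT 19, and their sum was 1160 and 333 in anaphase NT embryos, 453 and 361 in prometaphase NT embryos and 296 and 356 in 2-cell controls. The part of these RNAs in the Ifitm values was not tested.

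**Figure D2:**
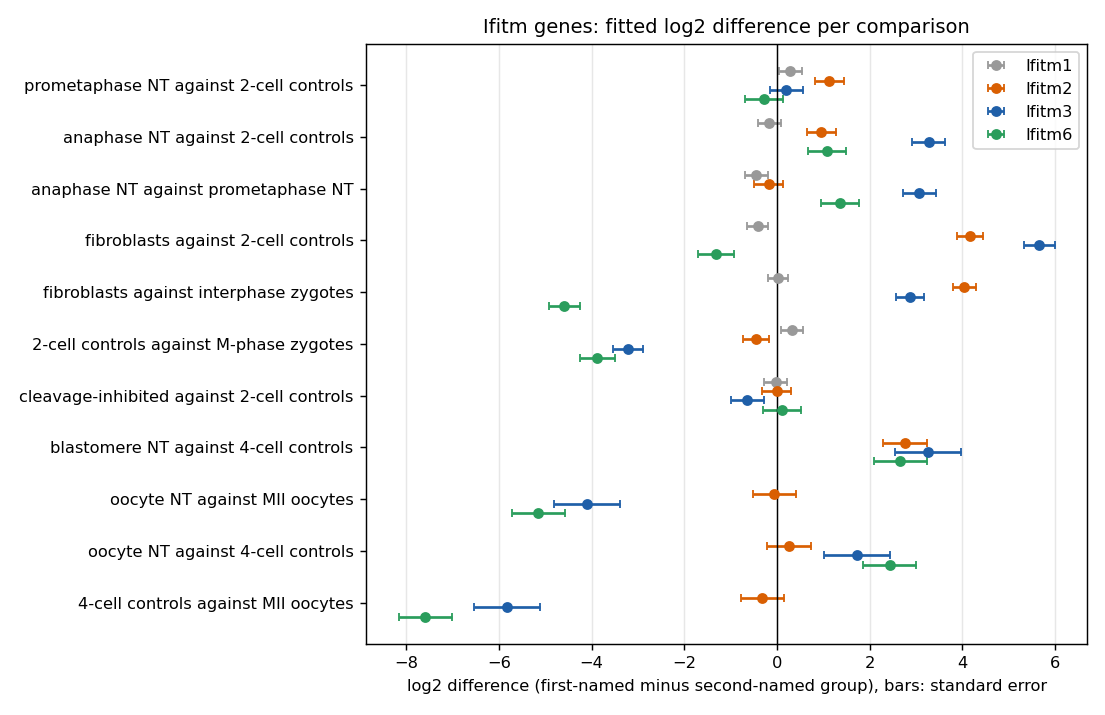
Fitted log2 difference with its standard error for Ifitm1, Ifitm2, Ifitm3 and Ifitm6 in each comparison, first-named minus second-named group, with comparisons down the page. Ifitm3 differed by 3.27 in anaphase NT embryos and by 0.20 in prometaphase NT embryos against 2-cell controls, while Ifitm2 differed by 0.95 and 1.13.

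On the second array version, the levels started high in the egg. Ifitm3 had 6.84 and 6.87 in 4-cell controls, against 12.63 and 12.75 in MII oocytes. Both 4-cell embryos lay far below both oocytes, at a difference of -5.83 ± 0.71 (SE), with 1.31% of genes lower still and 39.4% of all genes below without overlap. Ifitm6 fell by 7.59 on the log2 scale (SE 0.57, adjusted p = 1.81e-06), with 6.08 and 5.69 in 4-cell controls against 14.01 and 12.93 in MII oocytes. Ifitm2 had 8.53 and 8.68 in 4-cell controls, against 8.60 and 9.25 in MII oocytes. Those groups overlapped, and the sign of their difference depended on the values used (-0.32 ± 0.47, and 0.46 with the deposited series values). The single parthenote had 7.63 for Ifitm3 and 7.70 for Ifitm2.

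**Figure D3:**
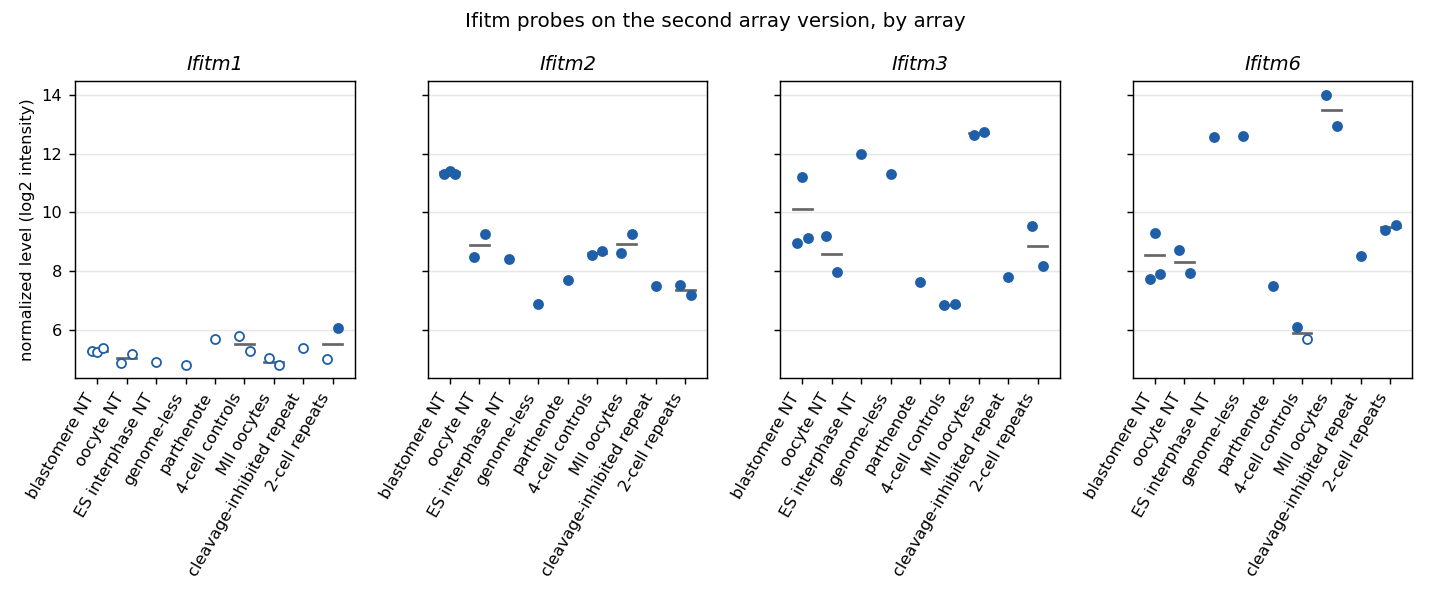
Normalized log2 intensity of Ifitm1, Ifitm2, Ifitm3 and Ifitm6 on each array of the second version, by group. Filled points were detected, open points were not and bars are means over samples (blastomere NT arrays 1 and 3 counting as 1); Ifitm2 in blastomere NT embryos (11.31, 11.41 and 11.32) lay above all other groups, and Ifitm3 was highest in MII oocytes (12.63 and 12.75).

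Oocyte NT embryos had less Ifitm3 than the oocytes they were made from and more than 4-cell controls. Ifitm3 had 9.19 and 7.97 in oocyte NT embryos, against 6.84 and 6.87 in 4-cell controls and 12.63 and 12.75 in MII oocytes. The groups did not overlap. The difference was -4.11 ± 0.71 (SE) from MII oocytes, where 38.5% of all genes lay below without overlap, and 1.72 ± 0.71 from 4-cell controls, where 31.9% lay above. The difference from 4-cell controls was larger than in 93.2% of genes. It ranged over 1.11 to 2.34 with each replicate left out, and was smaller without background correction. Ifitm2 had 8.48 and 9.26 in oocyte NT embryos, overlapping both 4-cell controls (8.53 and 8.68) and MII oocytes (8.60 and 9.25). Ifitm6 followed Ifitm3, with 8.71 and 7.92 in oocyte NT embryos, and was higher than in 4-cell controls by 2.43 ± 0.57 (adjusted p = 0.0236) and lower than in MII oocytes (-5.15 ± 0.57, adjusted p = 2.9e-05). Against 4-cell controls, 8 of 12 oocyte markers were also called higher, where 6.78% of all genes were, and the oocyte list summed 52000 to 69500 in oocyte NT embryos and 35400 to 38000 in 4-cell controls. The macrophage list summed 3120 and 2610 in oocyte NT embryos and 1180 and 1040 in 4-cell controls, with 8 and 2 of 11 markers detected in oocyte NT embryos and 1 called higher, Laptm5 (3.90 ± 0.63, adjusted p = 0.00611). The part of these RNAs in the Ifitm values was not tested. Oocyte NT embryos were compared with oocytes 2 days younger and with 4-cell embryos of another history, so stage and transfer cannot be told apart in these comparisons. The parthenote, taken 2 days after activation and on the same slide, had 7.63 for Ifitm3, 7.70 for Ifitm2 and 7.50 for Ifitm6. Both oocyte NT samples lay above it for each of these genes. With 1 parthenote array, no difference was tested.

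Blastomere NT embryos had the highest Ifitm2 of the second array version. Ifitm2 had 11.31, 11.41 and 11.32 on the 3 blastomere NT arrays, against 8.53 and 8.68 in 4-cell controls, which is 2.76 ± 0.47 (SE) higher and larger than in 98.8% of genes. Ifitm3 had 8.94, 11.19 and 9.12 on the same arrays, against 6.84 and 6.87 in 4-cell controls. All arrays lay above both controls for both genes, as they did for 25.4% of all genes. The Ifitm3 difference was 3.25 ± 0.71, larger than in 99.3% of genes, and 2.17 without array 2, the array with the highest value. Ifitm6 had 7.71, 9.29 and 7.88 in blastomere NT embryos, against 6.08 and 5.69 in 4-cell controls, and was higher by 2.66 ± 0.57 (adjusted p = 0.0372). That call was lost without 4-cell control 1 (adjusted p = 0.203), without 4-cell control 2 (0.277) and without blastomere NT 2 (0.347). Within the slide taken to hold all blastomere NT arrays and 1 of the controls, the differences were 2.69 for Ifitm2 and 3.24 for Ifitm3. The title and the description of that control, 4-cell control 2, name different slides, and the description was used.

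Macrophage markers moved with these values. Against 4-cell controls, 6 of 11 macrophage markers were called higher in blastomere NT embryos and none lower, where 2.07% of all genes were called higher. On at least 1 array, 11 of the 11 were detected in blastomere NT embryos and 2 in 4-cell controls. Markers that entered the fit through the blastomere NT arrays could not be called lower, so this count does not test the list. Laptm5 had a mean level of 12.95 in blastomere NT embryos and 6.56 in 4-cell controls (6.39 ± 0.63, adjusted p = 0.000675). C1qb, a complement subunit made by macrophages, was at least 6.71-fold higher and Adgre1 at least 3.72-fold higher. Without either 4-cell control, 3 markers were called, and without blastomere NT 2, 4 were called. The summed macrophage list was 7950, 19200 and 7140 on the blastomere NT arrays and 1180 and 1040 in 4-cell controls. The sum was highest on array 2, as were Ifitm3, Ifitm6 and, by a small margin, Ifitm2. The oocyte list was also highest on array 2, summing 43300, 51100 and 41200 on the blastomere NT arrays and 38000 and 35400 in 4-cell controls. On the first version Ifitm6 was lower in fibroblasts, where macrophage markers were high, than in 2-cell controls (-1.32 ± 0.38, limma, adjusted p = 0.00976). Its mean was 7.27 in those controls and 11.16 in M-phase zygotes. That comparison sets a cell culture against embryos on another array version, and whether macrophages carried Ifitm6 RNA was not tested. Of 7 fibroblast markers none was called higher and 1 was called lower (Pdgfra, -3.12 ± 0.51, adjusted p = 0.0101). The fibroblast list's median difference was 1.44, and 4 markers had an unadjusted p below 0.05, for which the share of all genes was not counted. Without blastomere NT 1, 1 fibroblast marker was called higher. Of the 7 markers, 5, 6 and 6 were detected on the blastomere NT arrays and 2 and 3 in 4-cell controls, and their sum was 965, 2700 and 934 on the blastomere NT arrays and 1440 and 1290 in 4-cell controls. No endothelial, keratinocyte or cumulus marker was called in this comparison (7, 3 and 2 tested). The part of macrophage or oocyte RNA in the Ifitm values was not tested.

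In the arrays with 1 sample per group, Ifitm3 was high in the ES interphase NT and genome-less embryos. On the first version it had 10.79 in the ES interphase NT embryo and 9.47 in the genome-less embryo, beside 8.77 to 9.67 in interphase zygotes. Its raw intensity there was 188.1 and 56.55, against 635.7 to 904.1 in interphase zygotes, so those normalized values rest on weak signal. On the second version it had 11.98 in the ES interphase NT embryo and 11.32 in the genome-less embryo, below the MII oocytes (12.63 and 12.75). Ifitm2 had 6.82 in the ES interphase NT embryo and 4.26, not detected, in the genome-less embryo on the first version, and 8.41 and 6.86 on the second. The repeat hybridizations of 2-cell RNA on the second version had 9.54 and 8.18 for Ifitm3 and 7.53 and 7.18 for Ifitm2, and that of cleavage-inhibited RNA had 7.80 and 7.48. With 1 sample per group, no difference was tested.

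Ordered by mean level on the first version, Ifitm3 ran from fibroblasts (12.22) through the ES interphase NT embryo (10.79), anaphase NT embryos (9.84), M-phase zygotes (9.79), the genome-less embryo (9.47) and interphase zygotes (9.36) to prometaphase NT embryos (6.77), 2-cell controls (6.56) and cleavage-inhibited embryos (5.93). Anaphase NT embryos overlapped both zygote groups, and 2-cell controls overlapped both prometaphase NT and cleavage-inhibited embryos. For Ifitm2 the order was fibroblasts (9.02), the ES interphase NT embryo (6.82), prometaphase NT embryos (5.98), anaphase NT embryos (5.79), M-phase zygotes (5.30), interphase zygotes (4.98), 2-cell controls (4.85) and cleavage-inhibited embryos (4.83). The genome-less embryo (4.26, not detected) cannot be placed, because the lowest detected level of its array was 6.53. The ES interphase NT value of Ifitm2 lay just above the lowest detected level of its array (6.25). Few probes were detected on these single arrays, so their places in the Ifitm3 order are uncertain too. Only the fibroblasts stood clear of every other group by more than the spread between samples among groups of 2 or more. On the second version, Ifitm2 ran from blastomere NT embryos (11.36) to MII oocytes (8.92), oocyte NT embryos (8.87) and 4-cell controls (8.60), of which the last 3 overlapped. Ifitm3 ran from MII oocytes (12.69) to blastomere NT embryos (10.11), oocyte NT embryos (8.58) and 4-cell controls (6.86), and blastomere NT and oocyte NT embryos overlapped.

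The wider interferon pathway was described with lists of 147 genes other than the 3 members, of which 76 were tested on the first version and 60 on the second. Those of the first version were 2 ligands, 7 receptors and kinases, 8 transcription factors, 7 negative regulators, 36 effectors and 16 antigen presentation genes. Ifit1, Mx1, Ifnar1 and Ifnar2 were not among the genes tested on either version.

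Many genes of the pathway were called higher in fibroblasts than in embryos, under the limit of the detection filter. List genes that entered the fit through the fibroblasts could be called higher but not lower, so the counts do not test the lists. On at least 1 array, 32 of 36 effectors were detected in fibroblasts and 14 in 2-cell controls. For antigen presentation genes these numbers were 14 of 16 and 5. Against 2-cell controls, 39 of 76 genes were called higher and 6 lower (limma, adjusted p below 0.05), beside 25.5% of all genes called higher and 23.9% lower, and the list's median log2 difference was 0.66 where that of all genes was -0.07. Scaling each array to its 75th percentile in place of quantile normalization moved the split to 32 higher and 23 lower, and moved the median of all genes to -0.91. Among receptors and kinases, 4 of 7 were called higher, including the kinase Jak1 (3.57 ± 0.74, adjusted p = 0.001), and 1 lower, Jak2 (-3.37 ± 0.45, adjusted p = 2.41e-05). Among transcription factors, 5 of 8 were called higher, with Irf2 at least 8.94-fold and Irf5 at least 5.52-fold higher. Among effectors, 20 of 36 were called higher, led by Lgals3bp, a secreted glycoprotein (at least 61.8-fold), and Ifi27l2a (at least 30.4-fold), and 3 lower, among them the RNA editing enzyme Adar (-2.05). Antigen presentation genes were called higher in 9 of 16, with H2-T23 at least 8.72-fold and the peptide transporter Tap2 at least 3.34-fold higher. Of the 7 negative regulators, 1 was called higher, the phosphatase Ptpn6 (2.34), and Socs1 (-1.73) and Socs3 (-1.23) were called lower.

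Against interphase zygotes the fibroblast counts were 46 higher and 14 lower, beside 31.2% and 28.2% of all genes, and the same limit of the filter applies. Ifi27 was at least 83-fold higher, and Irf1, a factor that binds the ISRE, was lower (-2.26). The RNA sensor Ddx58 (-3.71), Adar (-3.53) and Jak2 (-2.81) were lower too. The negative regulators split by 2 higher and 4 lower, with Socs3 higher (3.97).

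Anaphase NT embryos had list genes called in both directions. Against 2-cell controls, 9 of 76 genes were called higher and 8 lower, beside 17.1% and 18.5% of all genes, and the list's median was 0.08 where that of all genes was 0.04. The genes called higher included Irf1 (mean 7.72 in anaphase NT embryos and 5.23 in 2-cell controls, 2.49 ± 0.49, adjusted p = 0.00138), Jak2 (2.50 ± 0.49, adjusted p = 0.00129), Shisa5 (3.01 ± 0.60, adjusted p = 0.00147) and the lambda interferon receptor Ifnlr1 (at least 7.5-fold, adjusted p = 7.47e-05). Those called lower included Irf3, the factor that switches on interferon genes (mean 5.40 in anaphase NT embryos and 7.98 in 2-cell controls, -2.58 ± 0.45, adjusted p = 0.00056), Pml, the organizer of nuclear bodies (at least 5.92-fold lower, adjusted p = 3.04e-05), and the dNTP hydrolase Samhd1 (-1.92 ± 0.51, adjusted p = 0.00892). The count depended on the samples, with 29 genes called without anaphase NT 19 and 4 with the slide as a fixed term. Against prometaphase NT embryos, 8 of 76 genes were called higher and 12 lower, beside 19.4% and 21.1% of all genes, and 33 were called in all without anaphase NT 19. Irf1 was at least 8.55-fold higher and Ifnlr1 at least 7.8-fold higher, while Pml was at least 5.22-fold lower and Irf3 was lower (-2.55 ± 0.45, adjusted p = 0.000578).

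In prometaphase NT embryos 2 of 76 genes were called higher and none lower than in 2-cell controls, beside 1.62% and 0.515% of all genes, with 6 at an unadjusted p below 0.05. They were Zc3hav1, an antiviral protein that binds viral RNA (mean 6.92 in prometaphase NT embryos and 4.79 in 2-cell controls, 2.12 ± 0.46, adjusted p = 0.0291), and H2-Ab1, a class II antigen presentation gene (at least 1.76-fold, adjusted p = 2.06e-05). Leaving out either prometaphase NT sample left 1 of these calls in number, and a fit on the compared groups alone gave 0. Cleavage-inhibited embryos had 0 list genes called in either direction by limma, with 3 at an unadjusted p below 0.05. In both comparisons the share of all genes at that unadjusted p was not counted.

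Between 2-cell controls and M-phase zygotes, 10 list genes were called higher and 15 lower, beside 20.4% and 21.9% of all genes. Irf1 was lower in 2-cell controls (-3.05 ± 0.45, adjusted p = 9.19e-05), as were Irf8 (-2.65 ± 0.67, adjusted p = 0.00514), Shisa5 (-2.99 ± 0.55, adjusted p = 0.000538) and Ddx58 (at least 8-fold lower, adjusted p = 3.99e-07). Socs3, an inhibitor of JAK kinases, was higher (4.96 ± 0.33, adjusted p = 1.01e-07), as was the immunoproteasome subunit Psmb10 (at least 12.9-fold, adjusted p = 3.02e-07). With 75th percentile scaling the split was 10 higher and 8 lower, and without 2-cell control 23 a total of 13 genes was called.

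**Figure D4:**
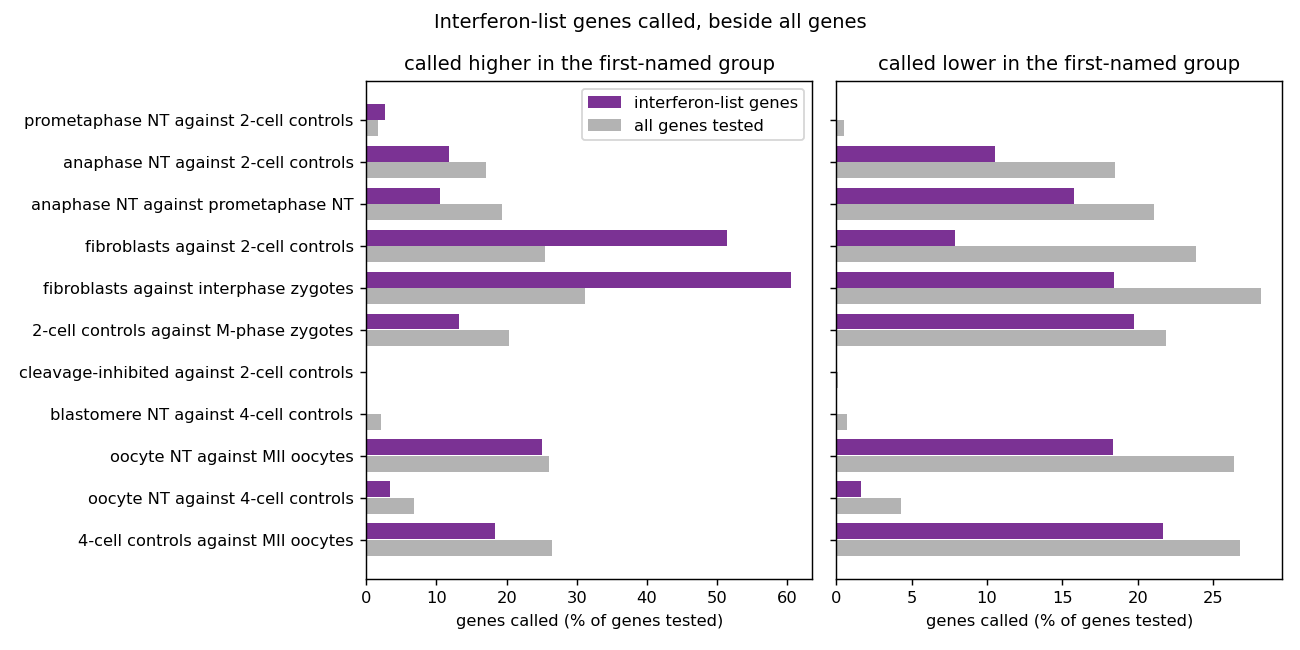
Share of interferon-list genes called higher (left) and lower (right) in the first-named group of each comparison, beside the share of all genes tested, in percent. Fibroblasts against 2-cell controls had 39 of 76 list genes called higher, and blastomere NT against 4-cell controls had 0 of 60.

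On the second version, list genes differed in both directions between oocytes and later stages. Between 4-cell controls and MII oocytes, 11 of 60 list genes were called higher and 13 lower, beside 26.5% and 26.8% of all genes. Between oocyte NT embryos and MII oocytes, 15 were called higher and 11 lower, beside 26% and 26.4%. Socs3 (6.26 ± 0.38, adjusted p = 6.37e-07) and Psmb10 (at least 46.6-fold) were higher in oocyte NT embryos than in MII oocytes, while Ifnlr1 (-3.76 ± 0.60, adjusted p = 0.000332), Jak1 (-3.18 ± 0.53, adjusted p = 0.000487) and Shisa5 (-3.20 ± 0.99, adjusted p = 0.0191) were lower. With 75th percentile scaling these splits were 13 higher and 19 lower in oocyte NT embryos and 10 higher and 21 lower in 4-cell controls, and with the deposited series values they were 17 and 4, and 18 and 8. Against 4-cell controls, oocyte NT embryos had 2 genes called higher and 1 lower, beside 6.78% and 4.3% of all genes: Jak2 (2.56 ± 0.34, adjusted p = 0.00252) and the exonuclease Isg20 (at least 2.53-fold, adjusted p = 0.0397) were higher, and Irf5 was lower (-1.83 ± 0.41, adjusted p = 0.0196). A total of 1 gene was called there without either 4-cell control or without oocyte NT 1.

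In blastomere NT embryos, where Ifitm2 and Ifitm3 lay above the 4-cell controls, limma called 0 of the 60 list genes in either direction, beside 2.07% of all genes called higher and 0.738% lower. The list's median difference was 0.46 where that of all genes was -0.03, and 11 genes had an unadjusted p below 0.05, for which the share of all genes was not counted. The closest to a call were Ifi27l2a (at least 1.73-fold, adjusted p = 0.137), the interferon gamma receptor Ifngr1 (1.85 ± 0.59, adjusted p = 0.157) and the ubiquitin-like protein Isg15 (1.78 ± 0.58, adjusted p = 0.165). With the 3 arrays taken as separate samples, 1 gene was called.

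The tetraspanin Cd81, a membrane protein of the cell surface and of endosomes like the IFITM proteins, differed in the same transfer groups. It was at least 42-fold higher in anaphase NT embryos than in 2-cell controls (adjusted p = 0.000188), 6.08 ± 0.98 higher in blastomere NT embryos than in 4-cell controls on the log2 scale (adjusted p = 0.00898), and 5.60 ± 0.98 higher in oocyte NT embryos than in 4-cell controls (adjusted p = 0.00826). In the list of endosome and membrane genes, 4 of 12 were called higher and 2 lower in anaphase NT embryos, beside 17.1% and 18.5% of all genes. In blastomere NT embryos 2 of 10 were called higher and none lower, beside 2.07% and 0.738%, and in oocyte NT embryos against 4-cell controls 1 of 10 was called higher and 3 lower, beside 6.78% and 4.3%, with a list median of -1.06. In prometaphase NT embryos limma called 0 of 12, with 0 at an unadjusted p below 0.05. Germ cell genes, listed because of the role of Ifitm3 in germ cell precursors, were not called higher in any transfer group against 2-cell or 4-cell controls, while in oocyte NT embryos against MII oocytes 4 of 11 were called higher and 2 lower, beside 26% and 26.4% of all genes. In anaphase NT embryos 3 of 10 were lower than in 2-cell controls, beside 18.5% of all genes: Tfap2c (at least 14.1-fold lower, adjusted p = 1.26e-07), Nanos3 (at least 2.38-fold lower, adjusted p = 2.19e-05) and Dppa3 (-1.16 ± 0.27, adjusted p = 0.00381). In oocyte NT embryos 2 of 11 were lower than in 4-cell controls, beside 4.3% of all genes: Nanog (-4.30 ± 0.71, adjusted p = 0.00662) and Pou5f1 (-2.18 ± 0.60, adjusted p = 0.0422).

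Genes whose pattern was most like that of each member were ranked by Pearson r over the 19 samples of the first version, which share the fibroblast samples as extreme points. For Ifitm3 these were Prelp (0.964), Igfbp7 (0.935), Mmp2 (0.934) and Shisa5 (0.934). Prelp, Igfbp7 and Mmp2 encode secreted matrix or matrix-processing proteins of connective tissue. Over the 14 samples of the second version, Shisa5 kept r = 0.928 with Ifitm3 and Prelp had 0.757. For Ifitm2 the nearest on the first version were Pcolce (0.967), AI661453 (0.952), the deubiquitinase Cyld (0.952) and Emp3 (0.951), and on the second version Cyld had 0.718 and Emp3 0.694. For Ifitm1 they were Golt1a, Plekhg6, Cnnm3 and Zfp213 (0.933 to 0.939), which rest on the arrays with a raised detection limit. Ifitm2 and Ifitm3 correlated at 0.697 on the first version and 0.17 on the second, and Ifitm3 and Ifitm6 at 0.107 on the first and 0.927 on the second.

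These genes were picked on the same samples, so their differences on the first version follow the choice and are given beside the members. Prelp (4.21 ± 0.49, adjusted p = 2.16e-05), Igfbp7 (4.19 ± 0.45, adjusted p = 1.05e-05) and Mmp2 (3.12 ± 0.37, adjusted p = 2.41e-05) were higher in anaphase NT embryos than in 2-cell controls. Their mean levels in anaphase NT embryos were 10.21, 8.94 and 11.6. M-phase zygotes, which had received no fibroblast, had 10.04, 9.38 and 11.95. Cyld was higher in prometaphase NT embryos than in 2-cell controls (at least 2.67-fold, adjusted p = 0.0223), the comparison in which Ifitm2 differed more than Ifitm3. On the second version, which the choice did not use, Emp3 (at least 3.51-fold, adjusted p = 0.0131) and Igfbp7 (at least 6.98-fold, adjusted p = 0.0334) were higher in blastomere NT embryos than in 4-cell controls, and Prelp (-0.18, adjusted p = 0.949) and Mmp2 (adjusted p = 0.502) did not pass the test.

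In the RefSeq gene order Ifitm5, Ifitm2, Ifitm1, Ifitm3 and Ifitm6 follow one another on chromosome 7, and 6 genes around them outside the family were tested. In anaphase NT embryos 5 of these 6 were called lower than in 2-cell controls, beside 18.5% of all genes, among them Psmd13, a proteasome subunit (-4.09, adjusted p = 0.00261), and Ptdss2, a phosphatidylserine synthase (-3.57, adjusted p = 0.000153), while Sirt3 did not pass (0.13). The same 5 were called lower in M-phase zygotes than in 2-cell controls, a comparison in which 20.4% of all genes were called higher in 2-cell controls. All of them but Psmd13 were also called lower in fibroblasts than in 2-cell controls, beside 23.9% of all genes. In prometaphase NT embryos 1 of the 6 was called, the desmosome protein Pkp3 (1.18 ± 0.26, adjusted p = 0.0302), which was higher, as were 1.62% of all genes. In blastomere NT embryos limma called 0 of the 6, beside 2.07% of all genes called higher and 0.738% lower, with Ptdss2 and Ano9 at unadjusted p = 0.0245 and 0.0146. None of the 6 was called higher in anaphase NT embryos.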

How the data were processed

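RNA was extracted with the PicoPure kit and biotin-labelled after amplification with the Illumina Total Prep kit, per the labels' protocols. The deposited intensity of each probe and its detection p-value come from GenomeStudio, per the submitters' processing notes; its background step is not stated there. The deposited series values are a linear rescaling of those intensities by an unknown factor for each array, apart from 1 repeat hybridization of cleavage-inhibited RNA (r = 0.9961), with column medians between 3.08 and 19.5 (first version) or 4.39 and 12 (second version), and served as an alternative after flooring at 1. Each version (24613 and 25697 probes) was background-corrected with normexp (offset 16), quantile-normalized and log2-transformed with neqc in limma 3.58.1 (R 4.3.3). Probes with detection p below 0.05 on at least 2 arrays entered the fit, and the brightest probe stood for a gene. Of the probes, 14898 and 15052 had 1 gene symbol in the platform annotation, none had several, and 9715 and 10645 had none. A group-means model with eBayes (trend) gave 11 comparisons, with Benjamini-Hochberg adjustment over all genes. Repeat hybridizations on the first version were left out of the fit, and those on the second formed groups of their own. The samples numbered 19 and 14, with 10 and 5 residual degrees of freedom, and the number of arrays limits the precision. On simulated data the fit of blastomere NT against 4-cell controls recovered 20% of genes changed by 2 log2 units, and that of anaphase NT against 2-cell controls 71%. Genes were named by a rule: the members, their family, the 4 genes most like each member, up to 4 called genes per list and comparison, and defining markers. The members, lists and rules were chosen with earlier results of these data known. Promoters were searched, and figures drawn, in Python 3.11.15 with matplotlib 3.10.9.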

Additional observations from a re-analysis of the deposited data

Results flagged for a closer look

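Ifitm6 and Ifitm10 stood apart because both anaphase NT samples lay above, and both prometaphase NT samples below, the 2-cell controls. Neither gene passed the test against 2-cell controls (limma, Ifitm6 adjusted p = 0.0578 in anaphase NT and 0.98 in prometaphase NT, Ifitm10 0.0755 and 0.945). Ifitm6 had 8.42 and 8.28 in anaphase NT embryos, 7.16 and 6.80 in prometaphase NT embryos and 7.26 and 7.29 in 2-cell controls, and anaphase NT exceeded prometaphase NT by 1.36 on the log2 scale (limma, adjusted p = 0.0174). That call was lost without anaphase NT 15 (0.0643) and without prometaphase NT 28 (0.107). Ifitm10 had 6.45 and 4.84 in anaphase NT embryos, 4.43 and 4.49 in prometaphase NT embryos, where it was undetected, and 4.80 and 4.72 in 2-cell controls. Its fitted difference between the transfers, 1.19, is not a measured size, and the bound was at least 2.03-fold (limma, adjusted p = 0.0192), lost without anaphase NT 15 (0.194). Beside these values, the oocyte list summed 25700 to 26000 in anaphase NT embryos and 7810 to 9440 in prometaphase NT embryos, and its part in them was not tested.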

How the results depend on the processing

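Anaphase NT (A), prometaphase NT (P) and cleavage-inhibited embryos (C) and fibroblasts (F) are set here against 2-cell controls unless another group is named. With 75th percentile scaling, Ifitm2 differed by 0.88 (P), 3.81 (F) and 2.51 (blastomere NT), and Ifitm3 by 2.41 (F against interphase zygotes), -4.97 (oocyte NT against MII) and -6.73 (4-cell against MII), with 1 list gene called in P. Without background correction, Ifitm2 differed by 0.62 (P), 0.51 (A), 3.07 (F), 3.0 (F against interphase zygotes) and 2.33 (blastomere NT), and Ifitm3 by 2.7 (A against P), 5.27 (F), -2.78 (2-cell against M-phase), 0.96 (oocyte NT against 4-cell) and -4.57 (4-cell against MII). With the deposited series values, Ifitm2 differed by 2.07 (P), 1.8 (A), 5.92 (F), 5.05 (F against interphase zygotes), -1.3 (2-cell against M-phase), 0.93 (oocyte NT against MII) and 0.46 (4-cell against MII), Ifitm3 by 3.91 (A), 6.23 (F), -3.91 (2-cell against M-phase) and -6.02 (4-cell against MII), and Ifitm1 by -0.01 (2-cell against M-phase), with 1 list gene called in oocyte NT against 4-cell. With the slide as a fixed term, Ifitm2 differed by 3.39 (F), and list genes called were 1 (P), 4 (A), 8 (A against P), 25 (F), 15 (2-cell against M-phase) and 0 (oocyte NT against 4-cell). In fits of the compared groups alone they were 0 (P), 1 (A), 6 (A against P) and 6 (oocyte NT against 4-cell). With detection required on at least 50% of the arrays, which tests fewer genes, they were 1 (P), 17 (F), 22 (F against interphase zygotes), 15 (2-cell against M-phase) and 1 (oocyte NT against 4-cell). Within 1 slide, Ifitm2 differed by 1.23 (A), 0.1 (A against P) and 0.21 (C), Ifitm3 by 3.47 (A against P) and 3.36 (F against interphase zygotes), and list genes called were 29 (A) and 0 (oocyte NT against 4-cell). With blastomere NT arrays as 3 samples, 1 was called. The cause was not tested. Leaving out each replicate, Ifitm2 ranged over 0.96 to 1.3 (P), 0.76 to 1.13 (A), -0.37 to 0 (A against P), 4 to 4.34 (F), 3.93 to 4.13 (F against interphase zygotes), -0.63 to -0.18 (2-cell against M-phase), -0.19 to 0.16 (C), 2.69 to 2.83 (blastomere NT), -0.45 to 0.33 (oocyte NT against MII), -0.13 to 0.66 (oocyte NT against 4-cell) and -0.64 to 0 (4-cell against MII). Ifitm3 ranged over -0.23 to 0.63 (P), 2.84 to 3.71 (A), 2.72 to 3.43 (A against P), 5.23 to 6.09 (F), 2.57 to 3.02 (F against interphase zygotes), -3.65 to -2.79 (2-cell against M-phase), -1.07 to -0.2 (C), 2.17 to 3.3 (blastomere NT), -4.72 to -3.5 (oocyte NT against MII), 1.11 to 2.34 (oocyte NT against 4-cell) and -5.9 to -5.77 (4-cell against MII), and Ifitm1 over -0.03 to 0.68 (2-cell against M-phase). List genes called ranged over 1 to 2 (P), 13 to 29 (A), 15 to 33 (A against P), 40 to 45 (F), 52 to 59 (F against interphase zygotes), 13 to 20 (2-cell against M-phase), 0 to 1 (C), 0 to 0 (blastomere NT), 18 to 24 (oocyte NT against MII), 1 to 2 (oocyte NT against 4-cell) and 19 to 24 (4-cell against MII). In all, 149 of the other counts and 423 of the other values stayed within 1.5 times or within 1 SD of those reported. No paired analysis was possible because the groups compared share fewer than 2 replicate numbers in the labels. On the genome-less and ES interphase NT arrays of the first version, levels below the raised detection limit are bounds.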
